A study of Mus musculus with 6 samples.

Results

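Gas5, Snhg1, Snhg3, Snhg5, Snhg6, Snhg8, Snhg12, Snhg15, Zfas1 and Epb41l4aos are spliced noncoding transcripts that carry small nucleolar RNAs (snoRNAs). They were taken as a named list, with no rule on their levels but with earlier results of these data known. They make up 10 of the 47643 genes counted and 10 of the 21717 that had at least 1 count. All 10 of them passed the filter on low counts that left 12088 genes for testing. The data were RNA-seq counts from CD45-EPCAM+ cells sorted by flow cytometry from 6 breast tumors of FVB/N mice with the MMTV-PyMT transgene, where the mouse mammary tumor virus promoter drives the polyomavirus middle T antigen in the mammary epithelium. Each mouse received B20-4.1.1, an antibody against VEGF-A, at 5 mg/kg into the peritoneum, 2 times a week for 6 weeks from 7 weeks of age. Every tumor therefore carried the same transgene and the same treatment, no untreated tumor was analysed here, and the hypoxia class that the study gave to treated tumors is not stated in the sample labels. Values are accordingly given for tumors 1 to 6, which come from separately identified mice, and no groups are compared.

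A snoRNA host gene is transcribed and spliced like a messenger RNA, and its snoRNAs are trimmed out of the excised introns. Box C/D snoRNAs guide ribose methylation and box H/ACA snoRNAs guide pseudouridylation, mainly of ribosomal RNA, so the host genes belong to the supply of ribosome parts. The joined exons of many of these hosts have no long reading frame, are bound by ribosomes and are degraded by nonsense-mediated decay, as is known best for Gas5. Several host genes also share with ribosomal protein genes a transcript that opens with a C and a run of pyrimidines, the terminal oligopyrimidine motif, which ties translation to growth signals. The host RNA counted at its 3′ end is thus a leftover of snoRNA supply, and its level reflects both synthesis and decay.

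The annotation (GENCODE M21, build GRCm38) placed 34 snoRNA genes inside the 10 hosts. Gas5 held 10, Snhg1 held 8, Snhg12 held 5, Zfas1 held 3, Snhg3 and Snhg5 held 2 each, and the other 4 hosts held 1 each. Snord80 in Gas5 and Snora16a in Snhg12 each have more than 1 entry at nearly the same position. Every entry is counted here and below. Examples of these snoRNAs are shown as the cargo that defines a host, with the C box (TGATGA) and D box (CTGA), or the ACA box, in capitals. Snord47 lies at chr1:161038082-161038158 on the plus strand inside Gas5, Snord50a at chr9:88521529-88521600 on the minus strand inside Snhg5, Snord87 at chr1:9942463-9942549 on the minus strand in an intron of Snhg6, and Snora24 at chr3:123507937-123508066 on the minus strand inside Snhg8.
Snord47: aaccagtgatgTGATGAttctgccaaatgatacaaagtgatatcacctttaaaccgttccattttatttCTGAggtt
Snord50a: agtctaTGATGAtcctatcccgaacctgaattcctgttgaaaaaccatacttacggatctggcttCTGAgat
Snord87: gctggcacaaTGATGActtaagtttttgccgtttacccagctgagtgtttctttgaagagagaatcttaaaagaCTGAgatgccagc
Snora24: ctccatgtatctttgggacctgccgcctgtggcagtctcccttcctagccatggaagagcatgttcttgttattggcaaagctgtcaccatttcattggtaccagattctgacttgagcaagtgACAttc

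A C box followed by a D box, read on the transcript strand, was present in 21 of the 34 host snoRNAs, against 24.0% of the 1507 snoRNA transcripts in the annotation. An ACA followed by the last 3 bases was present in 9 of the 34, against 18.3% of all. The host set therefore holds both snoRNA classes, with the C/D class in the majority.

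Start sites were read from RefSeq promoter entries (GRCm38.p6), which were present for 8 of the 10 hosts with 9 starts in all. They are shown because the pyrimidine start is the feature that host genes and ribosomal protein genes are known to share. Each window below runs from 10 bases before the start to 30 bases from the start onwards, with the longest C followed by at least 4 bases that are C or T in capitals. The Gas5 window is chr1:161035156-161035195 on the plus strand, that of Snhg8 chr3:123508307-123508346 on the minus strand, that of Snhg12 chr4:132308668-132308707 on the plus strand and that of Zfas1 chr2:167062924-167062963 on the plus strand.
Gas5: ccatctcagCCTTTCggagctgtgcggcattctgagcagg
Snhg8: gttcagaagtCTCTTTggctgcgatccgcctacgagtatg
Snhg12: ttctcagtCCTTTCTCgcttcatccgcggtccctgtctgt
Zfas1: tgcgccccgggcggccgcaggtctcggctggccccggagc

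Such a run was found in 5 of the 9 host starts, those shown for Gas5, Snhg8 and Snhg12 and those of Snhg3 and Snhg5. It was not found in the windows of Snhg1, Snhg15 and Zfas1 or in another Gas5 start upstream. The run was present in 43.5% of 32851 starts of all genes and on the opposite strand of 51.1% of them, and in 73.1% of 67 starts of ribosomal protein genes with 37.3% on the opposite strand. The share of host starts with a run thus lay near the background, and the windows mark a sequence feature only.

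The libraries held 2509482 to 5893246 counts on genes, so that 3 counts, taken as the limit of detection, corresponded to 0.509 to 1.20 counts per 1000000 counts on genes (CPM). The library of tumor 1 stood apart. Its median Pearson r with the other libraries over the genes tested was 0.862, against 0.929 to 0.957 for the rest, and its genes differed from the other tumors with the base composition of their last 300 bases (r = 0.39 across 12068 genes, which are not independent replicates). When all genes were split into 5 bins of GC content, those in the lowest bin were at a median of -0.53 on the log2 scale in tumor 1 relative to the median of the other tumors, and those in the highest bin at 0.59. The epithelial markers Epcam, Krt8, Krt18, Krt19 and Cdh1 summed to 3556 to 4426 CPM. Immune markers (7 genes) summed to 15.3 to 48.5 CPM in the other 5 tumors and to 215 CPM in tumor 3, where Lyz2 was at 148 CPM, while Cd79a was at 0 in all 6 and Cd3e at 0 in 5. The fibroblast markers summed to 14.6 to 21.1 CPM, the endothelial markers to 1.59 to 3.88 CPM and the erythroid markers to 5.08 to 63.3 CPM, except in tumor 3 with 778 CPM. The part of these markers in the values below was not tested.

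Gas5 was the leading host transcript in every tumor. Its name comes from its accumulation in growth-arrested cells. It was counted at 812, 860, 897, 593, 669 and 689 CPM in tumors 1 to 6, with a median of 751 CPM and a ratio of highest to lowest of 1.51. Tumors 1, 2 and 3 were the higher ones and tumor 4 the lowest. In bulk RNA of sorted cells, fewer cells with a transcript and less of it per cell cannot be told apart. Gas5 made up between 47.6% and 59.0% of all host counts in a tumor, and its lowest value (593 CPM) was above the highest value of any other host.

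Zfas1, Epb41l4aos and Snhg1 formed the next level. Zfas1, transcribed from the 5′ side of Znfx1 in the opposite direction and the host of Snord12, was at 234, 159, 193, 147, 189 and 214 CPM. Tumors 1 and 6 were highest and tumors 2 and 4 lowest. Snhg1, the host of Snord22, was at 177, 125, 154, 111, 160 and 127 CPM. On the CPM scale it shared with Zfas1 its highest tumor (tumor 1) and its lowest (tumor 4), while with TMM scaling Zfas1 was highest in tumor 6.

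Epb41l4aos, a short antisense transcript near Epb41l4a, was at 299, 152, 155, 125, 118 and 162 CPM. Tumor 1 stood far above the other 5, which spanned a ratio of only 1.37, against 2.53 with tumor 1 included. Its last 300 bases had the highest GC content of the 10 hosts (48.3%). Snhg15, the next in GC content (46%), was lowest in tumor 1, while Snhg1 (36%) was highest there. Over the 10 hosts, r of GC content with the log2 difference of tumor 1 from the other tumors was 0.27. The part of base composition in the Epb41l4aos value was not tested. Neighbours among Zfas1, Epb41l4aos and Snhg1 overlapped in range, with the higher one above the lower one in 5 of 6 tumors for each pair.

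Snhg3 and Snhg5 came below these. Snhg3, the host of Snora73a and Snora73b, was at 81.1, 57.4, 122, 54.2, 88.9 and 71.8 CPM, highest in tumor 3. Snhg5, the host of Snord50a and Snord50b, was at 55.1, 66.1, 66.2, 53.6, 57.5 and 42.4 CPM. Its range was narrow apart from the low value of tumor 6. Snhg15, the host of Snora9, was at 20.5, 22.3, 24.5, 24.9, 38.5 and 22.1 CPM, so that 5 tumors lay close together and tumor 5 above them.

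Snhg8 and Snhg6 differed most between tumors. Snhg8 was at 6.45, 10.4, 52.1, 23.8, 59.1 and 44.3 CPM, from 38, 26, 215, 112, 296 and 227 counts. The ratio of highest to lowest was 9.17, and the exact Poisson 95% interval of tumor 1 (4.56 to 8.85 CPM) and of tumor 2 (6.77 to 15.2 CPM) lay below those of the other 4 tumors, the lowest of which was 19.6 to 28.7 CPM in tumor 4. Without tumor 1 the ratio was 5.70. Counting error alone therefore did not span the range of Snhg8.

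Snhg6 was at 2.88, 2.79, 7.03, 2.77, 22.8 and 7.61 CPM, from 17, 7, 29, 13, 114 and 39 counts. Tumor 5 had a ratio to the lowest tumor of 8.23, and its interval (18.8 to 27.3 CPM) lay above that of tumor 6 (5.41 to 10.4 CPM), the next in level. Snhg12, the host of Snora44, Snora61 and Snord99, was the lowest host by median, although Snhg6 was below it in tumors 2 and 4. Snhg12 was at 0.848, 3.98, 4.12, 3.62, 3.00 and 2.73 CPM from 5, 10, 17, 17, 15 and 14 counts. Its interval in tumor 1 was 0.275 to 1.98 CPM and overlapped those of tumors 2, 5 and 6, the lower bounds of which were 1.91, 1.68 and 1.49 CPM. Tumors 2 to 6 spanned a ratio of 1.51 in Snhg12, so its low value rested on tumor 1. These intervals cover counting error only. Of the 9 neighbouring pairs in the order of median CPM, 8 overlapped in range over the tumors, the exception being Gas5 above Zfas1.

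**Figure D1:**
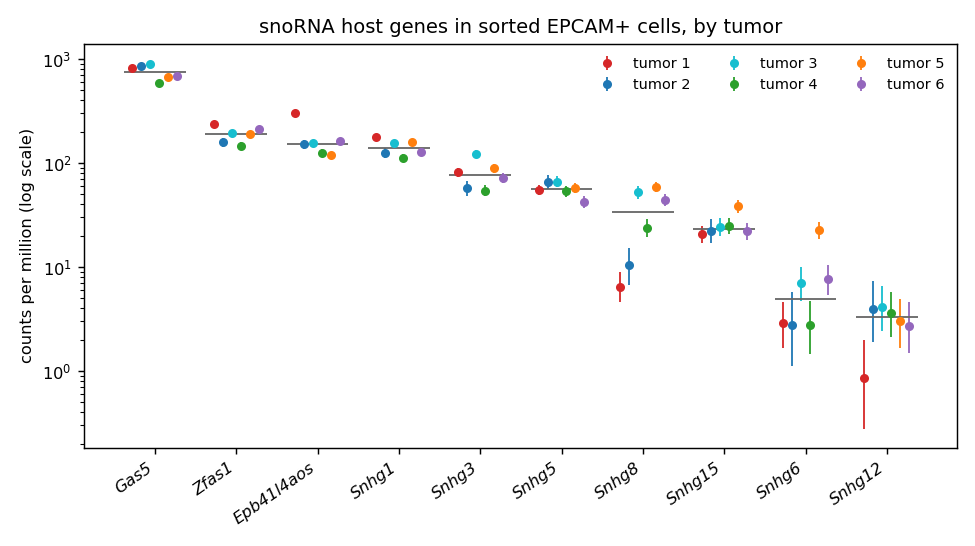
CPM of the 10 host genes (log axis) in tumors 1 to 6, with exact Poisson 95% intervals as bars and the median over tumors as a grey line. Gas5 lies above every other host, Snhg8 and Snhg6 spread over about an order of magnitude, and tumor 1 is highest in Epb41l4aos and lowest in Snhg8 and Snhg12.

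In a library that counts 3′ ends, CPM compares numbers of transcripts without regard to their length. Per length of exon (TPM, the same scale after division by the union exon length in GENCODE M21), the order of medians was led by Epb41l4aos at 920 TPM, a transcript with 430 annotated exon bases, ahead of Gas5 at 502 TPM, Snhg3 at 195 TPM, Zfas1 at 164 TPM and Snhg1 at 121 TPM. Snhg8 (101 TPM), Snhg5 (82.5 TPM), Snhg15 (44.4 TPM), Snhg6 (11.0 TPM) and Snhg12 (3.54 TPM) followed. The union length of Gas5 was 3760 bases over 25 annotated transcripts, so its per-length value depends on that choice. For Snhg1 (2969 bases), Zfas1 (2929), Snhg12 (2402) and Snhg8 (853) the union covered the whole gene from start to end, any introns included. Their TPM values, and with them the order by TPM, depend on that choice as well.

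Some of these levels depend on how overlapping annotation was counted. Exons of Snhg3 overlap Rcc1 on the same strand and Gm17300 on the opposite strand, those of Snhg6 overlap Mcmdc2 on the opposite strand, and those of Zfas1 overlap Gm27494 on the same strand and Znfx1 on the opposite strand. Whether counting used the strand is not given in the sources used here. Of the windows of 50 bases in the last 300 bases, 33.5% in Snhg15 and 16.3% in Zfas1 also occurred in another gene's transcripts, and none did in the other 8 hosts. The values of these genes are uncertain to that extent.

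The snoRNAs themselves were nearly absent from the counts. Of the 34 snoRNA genes, 30 had 0 counts in all 6 tumors, and the 34 together had 8 to 20 counts in a tumor. For a gene whose reads are all credited to it, 0 counts leave a level of up to 0.509 to 1.20 CPM undetected in a tumor. All 30 genes with 0 counts, however, overlap an annotated exon of their host. Reads there fall on 2 genes, and how such reads were counted is not given in the sources used here. Those 0 counts therefore set no upper limit on a level. Only 3 snoRNA genes passed 3 counts in any tumor. Snora73b in Snhg3 had 2, 3, 4, 3, 4 and 2 counts, Snord87 in Snhg6 had 3, 6, 2, 7, 8 and 8 counts, and Gm23639 in Epb41l4aos had 2, 6, 10, 8, 2 and 7 counts. These are also the 3 snoRNA genes that lie wholly in an intron, while the other 31 overlap an annotated exon of their host, where a read falls on 2 genes. QuantSeq primes on poly(A) tails, which mature snoRNAs lack, and the host RNA level is therefore no measure of snoRNA level here.

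The 10 hosts together were set beside 77 cytosolic ribosomal protein genes, the other large class of genes for ribosome parts. The hosts summed to 1689, 1458, 1676, 1138, 1406 and 1382 CPM, with a ratio of highest to lowest of 1.48. The ribosomal protein genes summed to 70043, 37854, 55610, 43402, 61293 and 55313 CPM, with a ratio of 1.85. Tumor 1 was highest in both sums. Tumor 2 was lowest in the ribosomal protein sum and above the median in the host sum, and tumor 4 was lowest in the host sum.

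Within each library, where no scaling between tumors enters, the hosts gave 24.1, 38.5, 30.1, 26.2, 22.9 and 24.99 counts per 1000 ribosomal protein counts. The median was 25.6. Tumors 2 and 3, the 2 tumors whose mouse identifiers begin with QSD where the other 4 begin with QAF, had the highest ratios. The labels do not say what the prefix stands for, 2 tumors are too few for a relation within that prefix, and its part in the ratio was not tested.

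Tumor 2 combined a host sum near the median (1458 against 1432 CPM) with the lowest ribosomal protein sum (37854 CPM against a median of 55462 CPM). Its library was also the shallowest (2509482 counts on genes). The share of reads on no gene was 16.1, 41.4, 29.0, 30.9, 23.6 and 21.2% in tumors 1 to 6. It was thus highest in tumor 2 and lowest in tumor 1, the tumors with the lowest and highest ribosomal protein sum. The part of depth or of these reads in the sums, the ratio and the slopes below was not tested. Gas5 alone gave 11.6, 22.7, 16.1, 13.7, 10.9 and 12.5 counts per 1000, while the other 9 hosts together gave 12.5, 15.8, 14.0, 12.6, 12.0 and 12.5. Zfas1 kept the narrowest ratio to the ribosomal protein sum, between 3.08 and 4.19 per 1000 (highest to lowest 1.36), followed by Snhg1 between 2.29 and 3.29 per 1000 (1.44). Snhg8, Snhg6 and Snhg12 had the widest, with highest to lowest of 10.5, 9.02 and 8.69. The 6 hosts below the leading 4 in counts gave 2.38, 4.31, 4.96, 3.75, 4.40 and 3.45 per 1000, highest in tumor 3 and lowest in tumor 1. Gas5 alone and the other 9 hosts ranked the tumors in the same order as the total, while these 6 hosts did not.

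**Figure D2:**
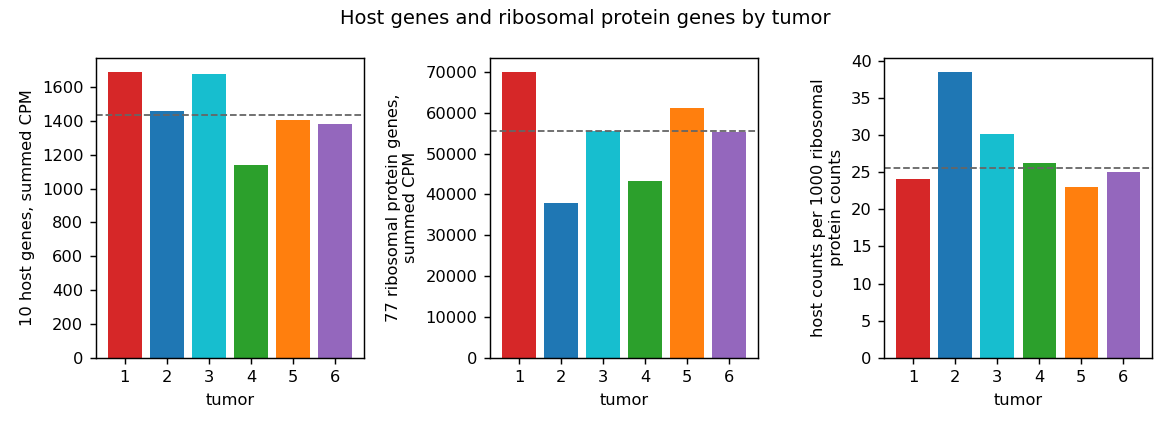
Summed CPM of the 10 host genes (left), summed CPM of the 77 ribosomal protein genes (middle) and host counts per 1000 ribosomal protein counts (right) in tumors 1 to 6, with the median as a dashed line. The ratio is highest in tumor 2 (38.5) and tumor 3 (30.1), and the other 4 tumors lie between 22.9 and 26.2.

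Whether single hosts followed the ribosomal protein sum was tested with a slope in edgeR's quasi-likelihood model, fitted to all 12088 genes, in units of log2 change per doubling of the sum. The slope of 7 hosts was positive and that of 3 negative, with a median of 0.68, beside 0.14 over all genes tested and 1.08 over the ribosomal protein genes, which enter the sum. None of the 10 passed an adjusted p of 0.05 (Benjamini-Hochberg over all genes, 0.48 to 0.98 for the hosts), and none had an unadjusted p under 0.05. In the background, 0 genes (0%) passed the adjusted threshold, 1455 genes (12.0%) had an unadjusted p under 0.05, and DESeq2 called 46 genes, no host among them.

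Zfas1 and Snhg1 had slopes of 0.74 ± 0.42 (SE, n = 6 tumors, edgeR adjusted p = 0.48) and 0.61 ± 0.41 (adjusted p = 0.55). Both stayed positive in each of 12 alternative fits. The slopes of Snhg3, Snhg5, Snhg6, Snhg12 and Epb41l4aos also kept their sign in all 12. Snhg3 had a slope of 0.75 ± 0.56 and Epb41l4aos one of 0.89 ± 0.56, the latter 0.08 without tumor 1. The slopes of Snhg6 (2.67 ± 1.60) and Snhg8 (1.45 ± 1.63) were large with large errors. Snhg6 ranged from 1.09 without tumor 5 to 4.33 without tumor 1, and Snhg8 from -0.27 without tumor 2 to 3.13 without tumor 1. Gas5 had a slope of -0.04 ± 0.46, or 0.41 without tumor 2, Snhg15 one of 0.16 ± 0.56, Snhg5 one of -0.36 ± 0.42 and Snhg12 one of -1.63 ± 1.00, or -0.61 without tumor 1. No host slope was thus distinguishable from 0 with 6 tumors.

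The same relation was described by Pearson's r between log2(TMM-scaled CPM + 1) and the log2 ribosomal protein sum. Zfas1 (r = 0.86, rho = 0.89) and Snhg1 (r = 0.83, rho = 0.77) reached 0.8, as did 796 of 12088 genes (6.59%) and 34 of 76 ribosomal protein genes (44.7%). Their two-sided exact permutation p-values over the 720 orders of 6 tumors were 0.043 and 0.042 for r and 0.033 and 0.10 for rho, and after Benjamini-Hochberg adjustment over all genes 0.35 and 0.35 for r and 0.35 and 0.50 for rho. The smallest p that 6 tumors allow is 0.00139, and the smallest adjusted p of any gene was 0.225. Without tumors 2 and 4, the tumors farthest from the median of the sum, r was 0.71 for Zfas1 and 0.68 for Snhg1 over 4 tumors, so that neither reached 0.8 and both rest in part on those tumors. With the identifier prefix as a term in the edgeR fit, an alternative chosen after the data were seen, the slopes were 0.85 and 0.81.

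The other 8 hosts lay between r = -0.74 for Snhg12 and r = 0.60 for Snhg3, with r = 0.00 for Gas5 and -0.57 for Snhg5. The exact permutation p for Snhg12 was 0.043 (adjusted 0.35, rho = -0.89). Over the 4 tumors left without tumors 2 and 4, r was -0.90 for Snhg12, and it changed sign to -0.90 for Snhg3, -0.76 for Snhg8, -0.36 for Snhg6 and -0.21 for Snhg15, so the positive r of these 4 hosts rested on those tumors. Without tumor 1, r was 0.94 for Snhg8 and 0.87 for Snhg6, against 0.12 and 0.44 with it. The median over the hosts was 0.28, beside 0.06 over all genes tested and 0.75 over ribosomal protein genes.

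The study's question was hypoxia under VEGF-A blockade, and a hypoxia score, the mean TPM of Vegfa, Slc2a1 and Car9, was 48.5, 37.2, 51.4, 76.6, 94.4 and 47.3 in the 6 tumors. These genes encode a vascular growth factor, a glucose transporter and a carbonic anhydrase, with medians of 55.6, 151 and 15.6 CPM. Of the hosts, 5 had a positive and 5 a negative slope on the score, with a median of -0.01, beside -0.04 over all genes. No host passed an adjusted p of 0.05 in edgeR (0.95 to 1.00), nor did any gene (0 genes, 0%), while 512 genes (4.24%) had an unadjusted p under 0.05 and DESeq2 called 18 genes, none of them a host.

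In edgeR, Snhg6 was the host with an unadjusted p under 0.05 on the score, with a slope of 1.61 ± 0.68 (SE; edgeR adjusted p = 0.95). The slope was -0.53 without tumor 5, which had both the highest score and the highest Snhg6, so the value rested on that tumor. Snhg8 had a slope of 0.99 ± 0.78 and Snhg15 one of 0.50 ± 0.31, or 0.10 in the lowest alternative. Epb41l4aos had a slope of -0.64 ± 0.42 and Gas5 one of -0.40 ± 0.33, and both stayed negative in each of 11 alternative fits. Zfas1 also stayed negative in all 11, and Snhg8 and Snhg15 stayed positive. Gas5 was at its lowest CPM in tumors 4 and 5, the 2 tumors with the highest scores, but its slope had an edgeR adjusted p of 0.95. Pearson's r with the log2 score was -0.86 for Gas5 (two-sided exact permutation p = 0.033, adjusted 0.97, rho = -0.71). By that test Gas5 was the only host with an unadjusted p under 0.05, while Snhg6 had r = 0.56 (p = 0.26). Without tumors 4 and 5, r was -0.58 for Gas5. The slopes of Snhg1, Snhg3, Snhg5, Snhg12 and Zfas1 lay between -0.18 and 0.02. Because the study sorted treated tumors into low and high hypoxia, a slope across these tumors cannot be told apart from a difference between the classes.

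**Figure D3:**
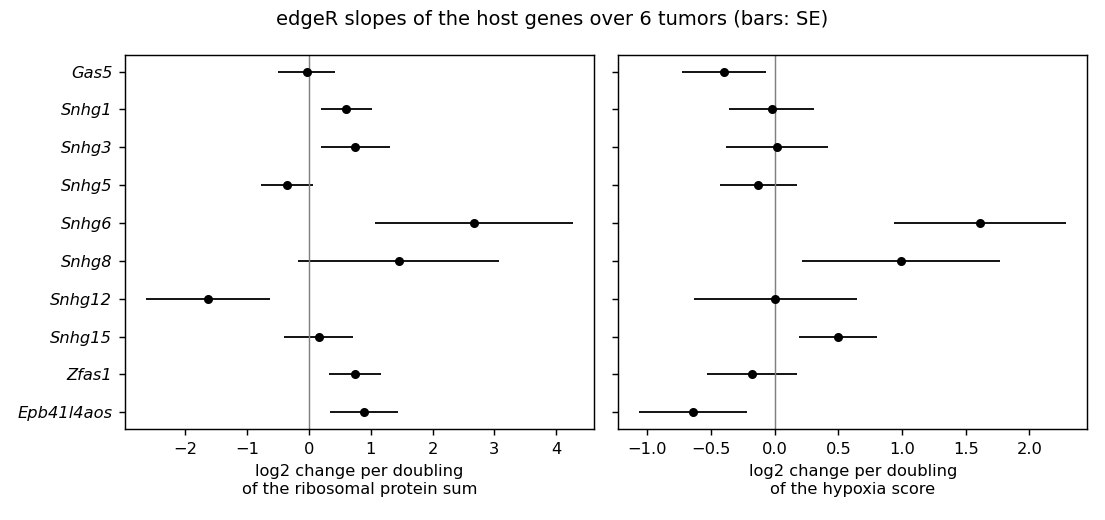
Slopes of the 10 host genes in log2 change per doubling of the ribosomal protein sum (left) and of the hypoxia score (right), from edgeR over 6 tumors, with bars of 1 SE. Snhg6, Snhg8 and Snhg12 have the widest bars, and no slope passes an adjusted p of 0.05.

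The spread between tumors, with counting error removed, was described by edgeR's biological coefficient of variation. It was low for Snhg5 (0.264, percentile 3.07 of all genes tested), Snhg1 (0.275, 7.95), Gas5 (0.280, 10.1), Zfas1 (0.285, 12.9) and Snhg15 (0.296, 19.4). Snhg3 (0.313) and Epb41l4aos (0.349) lay below the median of all genes, 0.354, and near that of the ribosomal protein genes, 0.336. Snhg12 (0.457, percentile 81.0), Snhg8 (0.604, 94.9) and Snhg6 (0.668, 97.0) varied more than most genes.

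Among the 3766 genes that averaged 50 CPM or more, the percentiles were 4.57 for Snhg5, 13.2 for Snhg1, 16.8 for Gas5, 21.5 for Zfas1, 44.2 for Snhg3 and 65.5 for Epb41l4aos. Over fits that left out each tumor in turn, the percentile among all genes lay between 1.47 and 13.3 for Snhg5, 4.45 and 12.0 for Snhg1, 7.79 and 21.2 for Gas5, and 8.27 and 21.2 for Zfas1. Snhg8 (93.7 to 95.8) and Snhg6 (87.3 to 98.8) stayed at the other end. Without tumor 1, Snhg12 was at percentile 54.5, Snhg3 at 55.2, Snhg15 at 34.8 and Epb41l4aos at 19.9. The list thus held both some of the steadier genes of these libraries and some of the more variable ones.

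**Figure D4:**
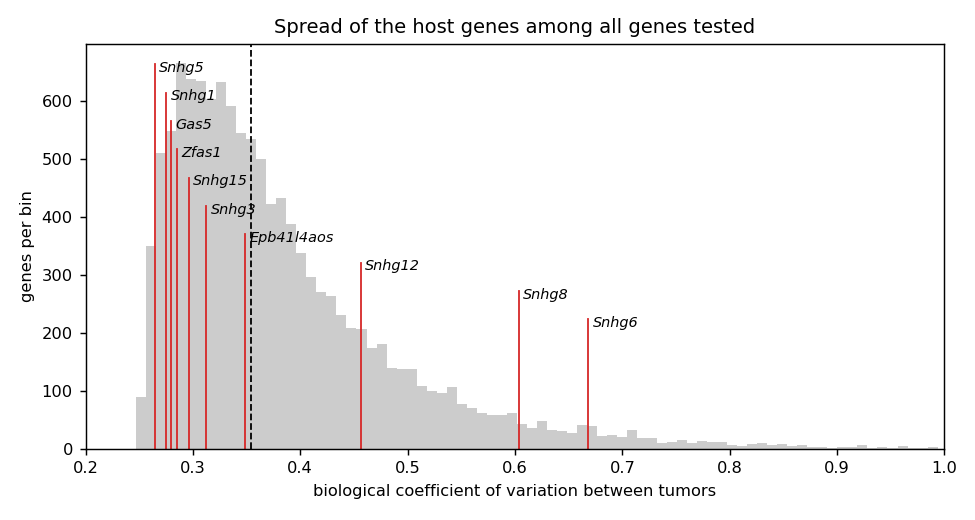
Histogram of the biological coefficient of variation between 6 tumors for genes tested (grey; 17 genes above 1 are not drawn), with the 10 host genes as red lines and the median of all genes (0.354) as a dashed line. Snhg5, Snhg1, Gas5 and Zfas1 lie at the low edge, and Snhg8 and Snhg6 in the upper tail.

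The hosts did not move as a single set. Over the 45 pairs of hosts, Pearson's r of log2(TMM-scaled CPM + 1) across the 6 tumors, which share libraries and depth, ranged from -0.82 to 0.86 with a median of 0.10, and 20 pairs were negative. Pairs of ribosomal protein genes had a median of 0.55. The highest pairs were Snhg6 with Snhg15 (0.86), Snhg6 with Snhg8 (0.79) and Snhg1 with Zfas1 (0.76), and the lowest was Snhg12 with Epb41l4aos (-0.82). Snhg6, Snhg8 and Snhg15 shared tumor 5 as their highest, and Snhg12 and Epb41l4aos had tumor 1 as their lowest and highest.

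The genes most like the mean log2 level of the hosts, among those that averaged 50 CPM or more and are neither hosts nor ribosomal protein genes, were Lias (r = 0.99 over 6 tumors), Cox7c (0.97), Ndufa4 (0.97), Hes1 (0.95) and Serpinh1 (0.95). Hes1 was at 22.6, 41.4, 120, 35.1, 120 and 115 CPM, high in tumors 3, 5 and 6. These genes were picked as the highest r among many genes over only 6 tumors, and their likeness to the hosts was not tested. The mean of the hosts is weighted by the hosts that vary most. It had r = 0.92 with Snhg6 and 0.86 with Snhg8 but 0.06 with Gas5 and -0.07 with Snhg5.

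Related gene lists were read beside the hosts. Of 11 further noncoding hosts listed, 7 were in the files, 6 were tested and none passed either slope test in edgeR, with a median slope on the ribosomal protein sum of -0.06. Snhg20 was at 166, 132, 125, 69.8, 74.1 and 54.3 CPM, Snhg9 at 105, 94.4, 77.6, 66.8, 56.5 and 59.7 CPM, and Snhg17 at 72.6, 54.2, 52.9, 45.7, 37.3 and 22.1 CPM. All 3 were highest in tumor 1, and in each, as in Gas5, the values of tumors 1 to 3 lay above those of tumors 4 to 6.

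Of 12 protein-coding snoRNA hosts, 12 were tested and none passed either slope test, with a median slope on the ribosomal protein sum of -0.32. The 3 most abundant were Rack1, a ribosome-bound scaffold protein, at 1014 to 2007 CPM with a slope of 1.01 ± 0.42 (edgeR adjusted p = 0.41), the nucleolar protein Ncl at 277 to 697 CPM (-0.07 ± 0.76) and Taf1d at 132 to 606 CPM (-1.42 ± 0.86). Ncl and Taf1d were lowest in tumor 1. Of 19 further translation genes with a known or likely pyrimidine start, 18 were tested and none passed, with a median slope of 0.55 and 16 positive. The elongation factors Eef2 and Eef1b2 had slopes of 0.44 ± 0.46 and 0.91 ± 0.43 and were led in r by Rack1 (0.94), which is on both lists.

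The proteins that bind snoRNAs, make ribosomes or degrade host RNA gave no call either. None of 13 snoRNP proteins passed (median slope 0.13), and the C/D protein Nop58 ranged from 164 to 331 CPM, the pseudouridine synthase Dkc1 from 134 to 232 CPM and its partner Nop10 from 52.8 to 137 CPM. None of 18 ribosome biogenesis genes passed (median slope -0.22), of which Ncl, Taf1d and Rrp1 were the most abundant, Rrp1 at 122 to 236 CPM. None of 14 genes of nonsense-mediated decay passed (median slope -0.27). Eif4a3 ranged from 173 to 458 CPM, Rbm8a from 203 to 250 CPM and Upf2, a core decay factor, from 35.5 to 270 CPM. Tumor 1 was highest in Eif4a3 and lowest in Upf2. None of 12 proliferation genes passed, with 11 positive slopes on the ribosomal protein sum and 12 on the score, led in level by Top2a (82.2 to 240 CPM), Birc5 (82.5 to 174 CPM) and Plk1 (29.5 to 107 CPM). The ribosomal protein genes with the highest mean CPM, Rps20, Rpl37 and Rps26, had medians of 2056, 2433 and 2510 CPM and slopes of 1.29 ± 0.54, 1.02 ± 0.46 and 0.91 ± 0.44 on the sum that contains them. Rps20 was at 4728 CPM in tumor 1 and at 1753 to 2257 CPM in the other 5.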

How the data were processed

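The deposited counts are raw reads per gene. The authors made 3′ libraries (QuantSeq FWD with a module of molecular identifiers) from sorted cells, trimmed the reads with bbduk, aligned them with STAR 2.5 to GRCm38/mm10 and counted them with HTSeq. Collapse by identifier, strand setting and annotation release are not given in the sources used here. Rows that name no gene, 16.1 to 41.4% of the reads, were left out. Depth was 2509482 to 5893246 counts per tumor. Counting intervals are exact Poisson at 95%.

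From the counts, CPM, TPM and slopes were computed. A gene was tested where it had at least 15 counts in all and reached a set CPM in at least 3 tumors. That CPM was the one given by 10 counts in a library of median size. edgeR 4.0.16 (TMM, quasi-likelihood) in R 4.3.3 gave slopes on the log2 ribosomal protein sum and on the log2 hypoxia score, with Benjamini-Hochberg adjustment over all genes tested, and DESeq2 1.42.0 was an alternative. The fits and correlations were tested on simulated data. The slope p-values set each slope against the variation left between these 6 tumors. The permutation p-values set each correlation against all orders of the tumors. Other alternatives were other scalings, no filter, other gene sets for the ratio and leaving out each tumor.

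The hosts and lists were chosen with earlier results of these data known. Named are the 10 hosts, the 3 most abundant genes of each list and any list gene past an adjusted p of 0.05, the 5 genes of at least 50 mean CPM most like the mean of the hosts, the 3 most abundant ribosomal protein genes, the score genes, and snoRNA genes with over 3 counts in a tumor. Marker genes and genes that overlap a host are named beside them. Symbols came from GENCODE M21, which held 47224 of the 47643 identifiers. Snhg4, Snhg7, Snhg10 and Snhg16 were not analysed here.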

Additional observations from a re-analysis of the deposited data

Results flagged for a closer look

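Over the 6 tumors 14 measures were screened, and in 3 hosts the gap of 1 tumor to the nearest other one, as a share of the whole range, exceeded Dixon's 95% critical value for 6 samples. Chance alone gives about 1 such case in 20 measures, or 0.7 over the 14 screened, and these measures are not independent. Snhg6 was at 22.8 CPM in tumor 5 against 7.61 CPM in the next tumor (gap over range 0.758). Snhg15 was at 38.5 CPM in tumor 5 against 24.9 CPM in the next (0.758), and 33.5% of the windows at its 3′ end are shared with other genes. Epb41l4aos was at 299 CPM in tumor 1 against 162 CPM in the next (0.758). Tumor 5 also had the highest hypoxia score, and tumor 1 is the library that correlated least with the others. The part of either in these values was not tested.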

How the results depend on the processing

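No paired analysis was possible because the labels give a single group. No host was called in either slope test under any alternative fitted. The summed host level (median 1432 CPM) was 1811 CPM without the 10 most abundant genes and 2107 TPM, and 1406 to 1458 CPM without each tumor in turn. The ratio (median 25.6 per 1000) was 40.7 against the 38 ribosomal protein genes with few shared windows, 152 from geometric means over genes, 12.5 without Gas5 and 4.03 without the 4 hosts with the highest counts (chosen after seeing the data), each by its construction, and 24.99 to 26.2 without each tumor. The count of hosts with r of at least 0.8 was 2, or 1 with DESeq2's size factors, 0 without the 2 tumors farthest from the median and 2 to 3 without each tumor. The median coefficient of variation of the hosts, 0.305, was 0.235 without tumor 1 and 0.312 to 0.334 without each other tumor.

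Slopes that were not called changed sign as follows, and the cause was not tested. On the ribosomal protein sum, Gas5 was 0.42 with the identifier prefix as a term (added after seeing the data) and -0.36 to 0.41 without each tumor in turn, Snhg8 -0.27 to 3.13 and Snhg15 -0.27 to 0.62 without each tumor, and Snhg15 -0.035 with the prefix term. The positive value of Gas5 and the negative one of Snhg8 came without tumor 2, and those of Snhg15 were -0.03 without tumor 2 and -0.27 without tumor 5. On the score, the ranges without each tumor were -0.32 to 0.15 for Snhg1, -0.25 to 0.29 for Snhg3, -0.26 to 0.10 for Snhg5, -0.53 to 2.08 for Snhg6 and -0.23 to 0.47 for Snhg12. Snhg1 was 0.035 with library totals, Snhg5 0.10 with the prefix term and Snhg12 -0.0032 with DESeq2. Depth limits Snhg12, with 5 to 17 counts a tumor, and Snhg6, with 7 to 114.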
